A study of Mus musculus with 27 samples.

Results

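Lung fibroblasts in primary culture from wild-type C57BL/6 mice, kept for 35 d in 3 uM KU60019, were compared with fibroblasts kept for 35 d in the vehicle DMSO. The 2 groups were taken by their titles from a count table of 27 libraries in 9 groups, so the comparison rests on 6 libraries, 3 with KU60019 and 3 with DMSO. Of 48440 genes in that table, 18684 had enough counts over the series to be tested, and all of those were used. The cells of both groups carried no engineered allele, were grown in serum-containing medium at low oxygen, and were harvested with the treatment still present. Other groups of the series, used here only where they are named, were treated for 15 d or were collected 20 d after the end of a 35 d treatment. The libraries are called S16, S17 and S18 (KU60019) and S13, S14 and S15 (DMSO) in the labels, and values below follow that order. The labels do not tell whether the libraries of a group came from separate animals or cultures. The p-values measure the spread between libraries, which may be technical. Which cells other than fibroblasts the cultures may hold is not stated in the labels.

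ATM is the kinase that cells activate at DNA double-strand breaks. It phosphorylates p53 and the kinase CHK2, and p53 in turn switches on genes of cell cycle arrest and cell death. KU60019 blocks its kinase activity. Fibroblasts in long culture can enter senescence, a lasting arrest in which the CDK inhibitors p21 and p16 are known to rise, lamin B1 is known to fall, and many cells secrete cytokines, chemokines and proteases.

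Levels are CPM, the counts of a gene per unit of library size, with the library size scaled by the TMM method. A gene rose or fell if the quasi-likelihood F-test of edgeR, run in 1 model over all 27 libraries, gave an adjusted p (Benjamini-Hochberg over the 18684 genes) under 0.05. Log2 fold changes are KU60019 over DMSO and carry an approximate standard error. By this rule 1812 genes rose (9.7%) and 1569 fell (8.4%), 18.1% in all, and the median log2 fold change of all tested genes was -0.01. Counts of list members below are to be read against these shares of 9.7% and 8.4%. A change of 2-fold or more was called for 1175 genes upward (6.29%) and 361 downward (1.93%). Every KU60019 library lay above every DMSO library for 20.9% of all tested genes and below for 23.5%. Genes named for the largest changes or the lowest p were chosen without overlap, so their separation adds no further support.

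Total counts per library lay between 21339940 and 44402601 with KU60019 and between 26704586 and 50859493 with DMSO. Transcripts of the mitochondrial genome took 5.08% to 6.61% of counts with KU60019 and 1.61% to 1.73% with DMSO. Ribosomal RNA took 0.0625% to 0.169% with KU60019 and 0.0252% to 0.0622% with DMSO. The relative level of a gene was its log2 level in a library minus its mean over all 27 libraries. The rank correlation of relative level with transcript length, over protein-coding genes, was 0.09, -0.03 and -0.19 in the KU60019 libraries. It was 0.07 in DMSO library S13 and 0.40 and 0.39 in DMSO libraries S14 and S15, so that S13 stood apart within its group. Some results that rest on it are also given without it.

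The fibroblast label was checked against 12 markers (collagens, PDGF receptors, decorin, lumican, vimentin and others), and each was detected in all 6 libraries. Their summed level was 6270, 5808 and 5781 TPM with KU60019 and 12885, 17768 and 16753 TPM with DMSO. The groups did not overlap, and 5 of the 12 markers fell while 2 rose. Pdgfra, a receptor for PDGF that marks lung fibroblasts, had 389, 303 and 321 CPM with KU60019 against 573, 782 and 849 CPM with DMSO (log2 fold change -1.12 ± 0.21, adjusted p = 7.07e-04). Pdgfrb, the second PDGF receptor gene, fell by 0.74 ± 0.14 on the log2 scale. Vim, the intermediate filament of mesenchymal cells, rose by 0.72 ± 0.20, a call that was lost without DMSO library S14 (adjusted p = 0.0567) or S15 (0.0572). In bulk RNA, a change in the number of cells of a type and a change in RNA per cell cannot be told apart.

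**Figure D1:**
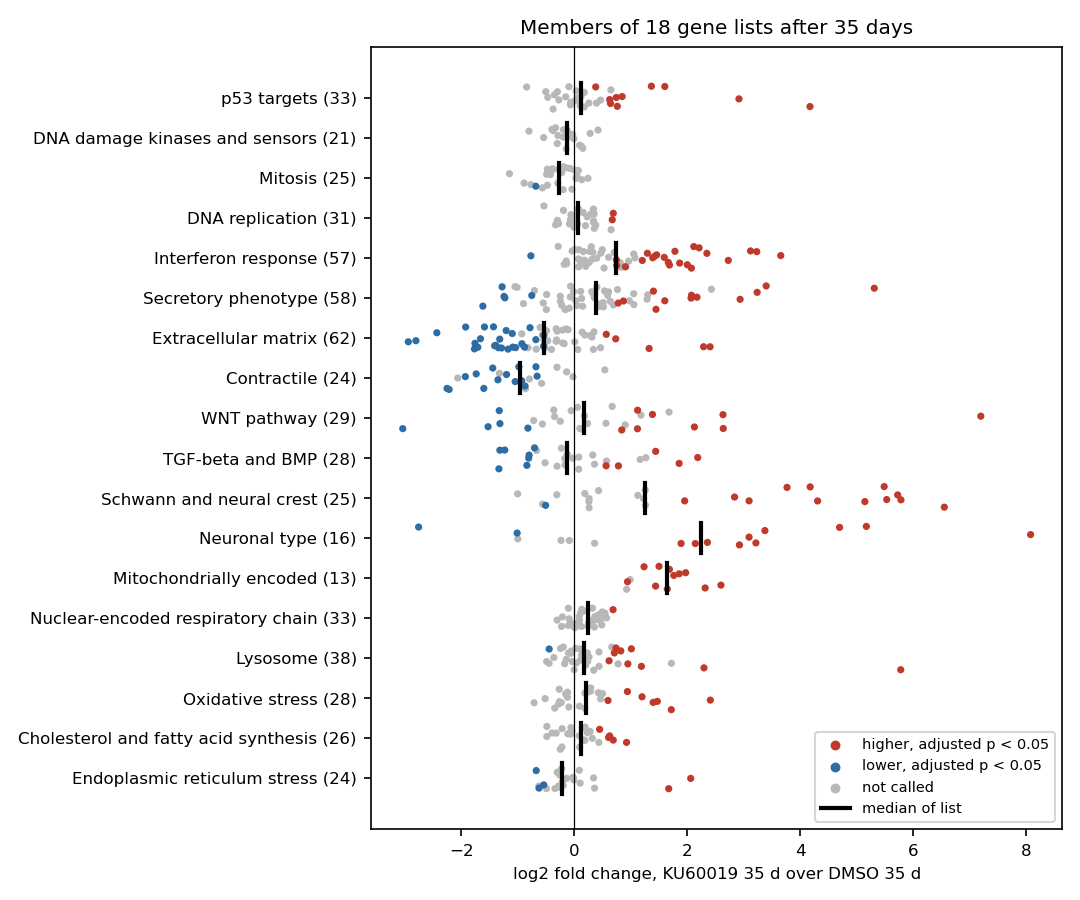
Log2 fold change, KU60019 35 d over DMSO 35 d, of every tested member of 18 gene lists, with the number of members in brackets; red and blue points passed the test, grey points did not, and black bars are list medians. Mitochondrially encoded genes lay to the right of 0 throughout, contractile genes mostly to the left, and genes without any DMSO count (Sostdc1, Nppb, Atp6v0d2) are drawn at a fitted value that depends on the prior count.

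Genes of growth arrest moved in a mixed way. Cdkn1a, which encodes the CDK inhibitor p21, had 378, 401 and 427 CPM with KU60019 and 257, 238 and 225 CPM with DMSO. All KU60019 libraries lay above all DMSO libraries (log2 fold change 0.74 ± 0.18, adjusted p = 0.00501), although on the deposited TPM the difference did not pass (0.39, limma adjusted p = 0.0791). Cdkn2a, the p16 and p19ARF gene, had 54.9, 54.6 and 51.2 CPM with KU60019 and 50.7, 35.4 and 38.6 CPM with DMSO; the groups did not overlap, but the difference did not pass (0.37 ± 0.31, adjusted p = 0.444). Cdkn2b (p15) rose by 0.77 ± 0.16, and Cdkn1c (p57) had 3.56, 3.32 and 4.02 CPM with KU60019 against 1.45, 1.54 and 1.51 CPM with DMSO. Cdkn1b, which encodes the CDK inhibitor p27, fell, with 63.4, 52.6 and 57.7 CPM against 92.5, 113 and 110 CPM in DMSO (-0.86 ± 0.12, adjusted p = 3.24e-05). Lmnb1, the lamin B1 gene, stood at 6.64, 6.33 and 5.38 CPM with KU60019 and at 13.6, 13.8 and 12.7 CPM with DMSO (-1.12 ± 0.18, adjusted p = 1.27e-04). Its groups were far apart relative to their spread. Dnmt1, the maintenance DNA methyltransferase, fell by 0.74 ± 0.12, and Hmga1, a chromatin architectural protein, rose by 0.86 ± 0.15. Atm itself had 3.56, 2.20 and 2.01 CPM with KU60019 and 2.05, 5.40 and 6.14 CPM with DMSO, groups that overlapped (adjusted p = 0.191). It was not called when any 1 of the 6 libraries was left out (adjusted p between 0.0563 and 0.543). Trp53, with 41.7, 39.9 and 33.6 CPM against 48.5, 51.6 and 51.6 CPM, did not pass either (adjusted p = 0.280).

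Of 33 p53 target genes 10 rose and 0 fell, with a list median of 0.12 (on TPM 4 rose and 3 fell, and the median was -0.21 against -0.33 for all genes). Without any 1 of the 6 libraries the number that rose was 8 or 9. Pmaip1, the death effector NOXA, had 16.1, 31.1 and 19.4 CPM with KU60019 and 3.02, 2.48 and 3.30 CPM with DMSO (log2 fold change 2.91 ± 0.32). Perp, a membrane protein of p53-dependent apoptosis, was lower in level, with 3.15, 6.13 and 4.07 CPM against 0.298, 0.189 and 0.248 CPM (4.17 ± 0.33). Ccng1, cyclin G1, rose by 0.76 ± 0.13, Gdf15, a stress-induced secreted factor, by 1.60 ± 0.31, and Trp53i11 by 1.36 ± 0.17. Mdm2, which encodes the ubiquitin ligase of p53, had 107, 106 and 98.1 CPM with KU60019 and 74.7, 81.6 and 83.1 CPM with DMSO. Its call (0.38 ± 0.13, adjusted p = 0.0396) was lost without any 1 of the 6 libraries, at adjusted p between 0.0631 and 0.114. Among 21 kinases and sensors of the DNA damage response 0 rose and 0 fell in edgeR's test, with a median of -0.14.

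Few genes of cell division were called. Of 25 mitosis genes 0 rose and 1 fell (4%), and of 31 DNA replication genes 2 rose (6.45%) and 0 fell. Over all tested genes 9.7% rose and 8.4% fell, so lists of this size cannot tell whether these genes changed less than others. Mki67, a marker of dividing cells, had 8.99, 13.7 and 9.50 CPM with KU60019 and 13.9, 19.2 and 11.8 CPM with DMSO, and the groups overlapped (adjusted p = 0.173). The mitosis gene that fell was Cdc20, an activator of the anaphase-promoting complex (-0.68 ± 0.20), whose call was lost without DMSO library S14 (adjusted p = 0.172), KU60019 library S16 (0.0565) or KU60019 library S18 (0.104).

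Interferon response genes were higher with KU60019. Of 57 listed genes 22 rose and 1 fell, and the list median was 0.74 (0.32 on TPM). The summed level was 6043, 6348 and 5704 TPM with KU60019 and 3912, 3011 and 3158 TPM with DMSO, so the groups did not overlap. By role, 14 of 30 antiviral effectors, 6 of 11 antigen presentation genes, 1 of 5 transcription factors and 1 of 11 nucleic acid sensors rose, and 1 sensor gene fell. DMSO library S13 was the highest of the DMSO libraries for the effectors named below. Without it 28 of the list rose, whereas 11 rose without DMSO library S14 and 11 without DMSO library S15.

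Many interferon response genes are known targets of the ISGF3 complex, which binds the interferon-stimulated response element. The promoters of 4 effectors that rose are shown because they hold the letters of this element. Each runs from 250 bases before to 50 bases after the RefSeq start of the gene (GRCm38.p6), 5′ to 3′ on the gene's own strand, and capitals mark the letters GAAANNGAAA or their reverse complement TTTCNNTTTC. In Oas1a and Bst2 a pair of matches overlap.
Ifit1: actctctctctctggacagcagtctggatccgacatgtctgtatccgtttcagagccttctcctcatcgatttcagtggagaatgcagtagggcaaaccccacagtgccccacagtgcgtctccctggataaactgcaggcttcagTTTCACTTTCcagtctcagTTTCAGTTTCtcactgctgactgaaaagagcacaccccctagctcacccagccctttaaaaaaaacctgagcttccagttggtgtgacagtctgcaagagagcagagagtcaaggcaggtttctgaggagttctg
Ifit3: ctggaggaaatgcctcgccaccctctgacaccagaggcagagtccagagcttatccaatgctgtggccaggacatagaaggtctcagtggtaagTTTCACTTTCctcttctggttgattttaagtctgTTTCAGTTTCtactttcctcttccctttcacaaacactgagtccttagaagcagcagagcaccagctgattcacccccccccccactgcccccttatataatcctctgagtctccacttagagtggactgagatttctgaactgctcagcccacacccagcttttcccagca
Oas1a: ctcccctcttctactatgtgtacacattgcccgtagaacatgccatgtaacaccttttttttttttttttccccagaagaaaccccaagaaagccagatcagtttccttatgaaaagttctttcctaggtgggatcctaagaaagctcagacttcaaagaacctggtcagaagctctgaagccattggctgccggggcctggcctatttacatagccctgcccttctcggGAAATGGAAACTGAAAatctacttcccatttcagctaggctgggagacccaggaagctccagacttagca
Bst2: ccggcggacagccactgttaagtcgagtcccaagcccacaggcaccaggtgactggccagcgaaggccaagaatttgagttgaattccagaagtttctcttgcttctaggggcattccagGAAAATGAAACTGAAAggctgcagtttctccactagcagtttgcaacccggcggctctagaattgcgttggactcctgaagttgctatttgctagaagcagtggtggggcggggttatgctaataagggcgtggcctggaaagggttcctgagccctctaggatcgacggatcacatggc
The windows are chr19:34640639-34640938 (plus strand) for Ifit1, chr19:34583279-34583578 (plus strand) for Ifit3, chr5:120907476-120907775 (minus strand) for Oas1a and chr8:71537423-71537722 (minus strand) for Bst2. The first bases of the matches lie at -104 and -85 from the start site in Ifit1, at -156 and -122 in Ifit3, at -20 and -14 in Oas1a and at -130 and -124 in Bst2. Searched on both strands, these letters were found for 17 of the 41 interferon genes with a RefSeq promoter (41.5%). They were found for 1079 of all 27025 genes with a promoter (3.99%) and for 445 of the 11766 tested genes with a promoter (3.78%). A gene was counted once, if any of its promoters held the letters. Among interferon genes with a promoter, the letters were found for 9 of the 17 that rose (52.9%) and for 8 of the 24 others (33.3%). A match describes the letters only.

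Ifit1, whose protein binds viral RNA lacking a methylated cap, had 76.4, 98.9 and 74.9 CPM with KU60019 and 38.8, 13.7 and 16.4 CPM with DMSO (log2 fold change 1.86 ± 0.50, adjusted p = 0.0116). Ifit3, its partner, had 95.8, 161 and 101 CPM against 67.4, 21.2 and 24.5 CPM (1.66 ± 0.47, adjusted p = 0.0163), and reads may be shared with its near-identical copy Ifit3b. In both the groups did not overlap, yet the lowest KU60019 library was less than 2-fold above DMSO library S13. The call of Ifit1 was lost without DMSO library S14 (adjusted p = 0.0731) or S15 (0.0701), and that of Ifit3 without DMSO library S14 (0.0956) or S15 (0.0959) or KU60019 library S17 (0.0798). Oas1a, an oligoadenylate synthetase that activates RNase L, had 9.12, 12.2 and 8.61 CPM against 2.46, 0.597 and 0.553 CPM (3.12 ± 0.60), and reads may be shared with Oas1g. Bst2, or tetherin, which holds budding virions at the cell surface, had 344, 502 and 409 CPM against 174, 63.7 and 76.3 CPM (2.0 ± 0.37, adjusted p = 5.77e-04). Irf7, the transcription factor that amplifies the type I response, had 79.9, 103 and 62.7 CPM against 27.7, 14.1 and 16.8 CPM (2.07 ± 0.44). These 3 kept their calls without any 1 of the 6 libraries.

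Of the 11 antigen presentation genes 6 rose and 0 fell. B2m, the light chain of MHC class I, had 1532, 1502 and 1483 CPM with KU60019 and 699, 455 and 492 CPM with DMSO (log2 fold change 1.46 ± 0.20, adjusted p = 3.49e-05). Each KU60019 library was more than 2-fold above each DMSO library. The class I heavy chain genes H2-K1 (1.29 ± 0.23) and H2-D1 (1.59 ± 0.24), which may share reads, and Nlrc5, their transactivator (2.73 ± 0.42), rose as well. Tmem173 encodes STING, the adaptor of cytosolic DNA sensing, and was the member that fell: it had 30.4, 27.4 and 28.2 CPM against 53, 46.4 and 47.0 CPM (-0.77 ± 0.15, adjusted p = 8.83e-04). Of 17 guanylate binding proteins and immunity related GTPases, 9 rose and 0 fell, with a median of 1.06. Gbp4 had 3.67, 2.34 and 2.39 CPM against 0.335, 0.314 and 0.133 CPM, and Gbp6 had 19.6, 16.3 and 14.7 CPM against 7.90, 3.77 and 4.29 CPM. The number of GTPase genes that rose was 3 without DMSO library S14 or S15, 4 without KU60019 library S16 and 5 without KU60019 library S17.

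Secreted factors of senescent cells rose in part: 12 of 58 rose (20.7%), against 9.7% of all tested genes. Another 5 fell (8.62%), near the 8.4% of all tested genes. The list median was 0.38 (-0.02 on TPM, with 7 higher and 6 lower). Without DMSO library S14 or S15, 8 rose, and without KU60019 library S17, 9 rose. Without KU60019 library S17 or S18, 3 fell, and without KU60019 library S16, 6 fell. Of 18 chemokine genes 5 rose and 0 fell. Ccl8, a monocyte chemoattractant, had 69.6, 41.2 and 58.1 CPM with KU60019 and 2.42, 0.566 and 1.33 CPM with DMSO (log2 fold change 5.31 ± 0.57, adjusted p = 1.28e-06). Ccl5, a T cell and monocyte attractant, was at lower level, with 3.65, 7.11 and 4.02 CPM against 0.894, 0.534 and 0.534 CPM (2.93 ± 0.39). Cxcl16, a scavenger receptor and chemokine, rose by 0.87 ± 0.21. Il6, the cytokine most often used as a marker of the secretory phenotype, had 257, 89.4 and 133 CPM against 319, 202 and 446 CPM, with overlapping groups (adjusted p = 0.274).

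Of 19 proteases and their inhibitors 4 rose and 3 fell. Mmp13, a collagenase, had 21.7, 39.4 and 26.7 CPM with KU60019 and 3.50, 1.13 and 4.56 CPM with DMSO (log2 fold change 3.24 ± 0.59, adjusted p = 5.76e-04). Mmp14, the membrane-bound activator of gelatinase A, had 271, 279 and 247 CPM against 461, 433 and 447 CPM (-0.75 ± 0.15), and Mmp8, another collagenase, fell by 1.24 ± 0.24. Timp1, a metalloproteinase inhibitor, had 1866, 1660 and 1950 CPM against 851, 602 and 621 CPM (1.40 ± 0.25). Serpine2, or protease nexin 1, an inhibitor of thrombin, had 263, 319 and 336 CPM against 60.6, 79.4 and 63.8 CPM (2.17 ± 0.21, adjusted p = 4.90e-07). In all of these the groups were separate. Igfbp5, which binds insulin-like growth factors, had 99.4, 128 and 175 CPM against 270, 444 and 519 CPM (-1.62 ± 0.29).

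Extracellular matrix genes were lower with KU60019: of 62 tested, 26 fell and 5 rose, and the median was -0.54. The number that fell was 21 to 28 when any 1 of the 6 libraries was left out, and the number that rose was then 2 or 3. By role, 9 of 16 fibrillar and fibril-associated collagens, 9 of 22 elastic fibre genes and glycoproteins, 7 of 15 basement membrane genes and 1 of 9 small leucine-rich proteoglycans fell. After the trend of relative level with transcript length had been taken out of every library 23 fell and 5 rose, and on TPM 32 fell and 2 rose.

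Type I collagen is the main fibrillar collagen of lung matrix. Its gene Col1a1 (GRCm38 chromosome 11, 94936224 to 94953042) had 1063, 1746 and 1274 CPM with KU60019 and 5952, 9107 and 6986 CPM with DMSO (log2 fold change -2.43 ± 0.26, adjusted p = 1.13e-06). Col1a2, its other chain, had 2815, 3042 and 2777 CPM against 8827, 10776 and 9595 CPM (-1.76 ± 0.16). Col3a1, type III collagen, had 4714, 4226 and 5269 CPM against 14241, 16435 and 17677 CPM (-1.77 ± 0.35). Every KU60019 library lay below every DMSO library by more than 2-fold in these 3 genes. Type V collagen starts fibrils and type VI forms beaded filaments: Col5a1 (-1.41 ± 0.22), Col5a2 (-1.39 ± 0.26), Col6a1 (-1.32 ± 0.24) and Col6a3 (-1.92 ± 0.37) all fell. Among the glycoproteins Fbn1, fibrillin 1 of microfibrils, had 413, 382 and 386 CPM against 737, 1145 and 1111 CPM (-1.34 ± 0.19). Fn1, fibronectin, had 5118, 4378 and 4643 CPM against 7580, 10974 and 11715 CPM (-1.10 ± 0.27). In both, DMSO library S13 was the lowest of its group and still above all KU60019 libraries.

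Basement membrane genes that fell included both chains of the ubiquitous type IV collagen. Col4a1 had 590, 475 and 543 CPM with KU60019 and 1431, 1912 and 1906 CPM with DMSO (log2 fold change -1.71 ± 0.21), and its head-to-head neighbour Col4a2 changed by -1.66 ± 0.19. Lama1, a laminin chain, was low in level, with 1.37, 1.37 and 1.40 CPM against 9.32, 12.5 and 9.93 CPM (-2.94 ± 0.30, adjusted p = 6.27e-07). Adamtsl3, an ADAMTS-like glycoprotein of the matrix, was the gene with the most negative fold change among those named by rule, with 6.71, 5.91 and 7.72 CPM against 57.4, 113 and 131 CPM. Sparcl1, a matricellular protein, had 184, 79.4 and 130 CPM against 906, 867 and 968 CPM. In these genes the KU60019 and DMSO libraries did not overlap, which the naming rule required of Lama1, Adamtsl3 and Sparcl1.

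Not all matrix genes were lower. Bgn, the small proteoglycan biglycan and among the most abundant transcripts, had 7099, 6371 and 6864 CPM with KU60019 and 7339, 8244 and 7910 CPM with DMSO (adjusted p = 0.401). Mgp, the matrix protein that is an inhibitor of calcification, had 6177, 5609 and 7410 CPM against 6239, 4006 and 5611 CPM, and the groups overlapped (adjusted p = 0.637). Lum, lumican, which regulates fibril width, rose, with 45.6, 43.8 and 53.9 CPM against 23.3, 16.2 and 17.8 CPM (log2 fold change 1.32 ± 0.34, adjusted p = 0.00839). Fmod, fibromodulin of the same family, had 135, 84.0 and 118 CPM against 343, 254 and 311 CPM (-1.43 ± 0.35).

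**Figure D2:**
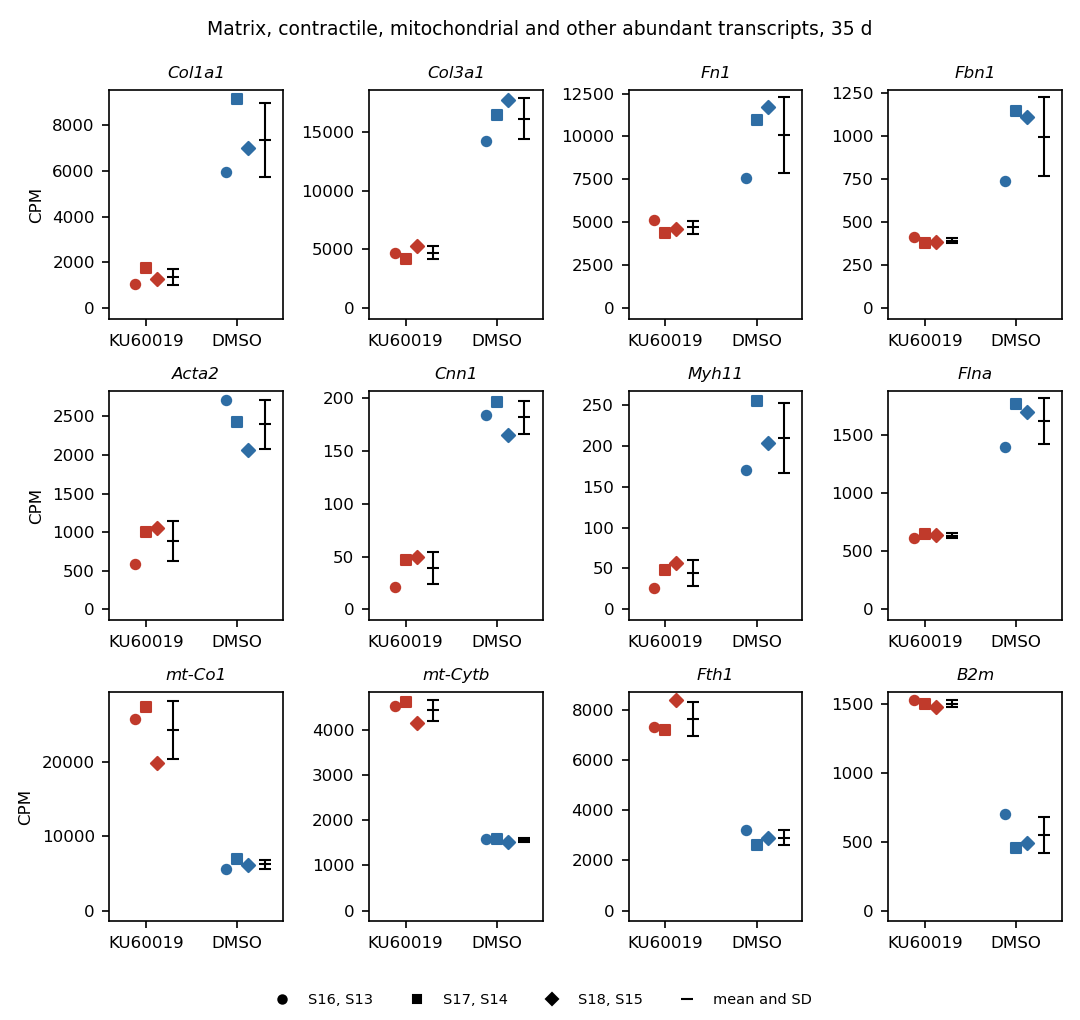
CPM of 12 transcripts in each library after 35 d, KU60019 (red) left of DMSO (blue), with the mean and SD of 3 libraries beside the points on linear axes. The 3 KU60019 libraries lie below the 3 DMSO libraries for the matrix and contractile genes (upper and middle rows, for example Col1a1 at 1063 to 1746 against 5952 to 9107 CPM) and above them for mt-Co1, mt-Cytb, Fth1 and B2m (lower row).

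Contractile genes were lower as well: 14 of 24 fell and 0 rose, with a median of -0.96. Between 12 and 14 fell when any 1 of the 6 libraries was left out, 15 fell with the length trend removed and 21 on TPM. Acta2, smooth muscle actin and the usual marker of myofibroblasts, had 584, 1005 and 1056 CPM with KU60019 and 2706, 2420 and 2066 CPM with DMSO (log2 fold change -1.44 ± 0.26, adjusted p = 4.35e-04). Myh11, smooth muscle myosin heavy chain, had 26.3, 48.7 and 57.2 CPM against 171, 255 and 203 CPM. Cnn1, calponin, which binds actin and slows myosin, had 21.5, 46.8 and 49.4 CPM against 184, 196 and 165 CPM. In these 3 genes KU60019 library S16 was the lowest of all 6 and no DMSO library overlapped the KU60019 group. Actg2, enteric smooth muscle actin (-1.74 ± 0.38), Lmod1, leiomodin, which nucleates actin filaments (-1.60 ± 0.24), and Mylk, myosin light chain kinase (-1.20 ± 0.24), fell. Among focal adhesion genes Flna, the actin crosslinker filamin A, had 612, 649 and 639 CPM against 1394, 1764 and 1691 CPM (-1.35 ± 0.17). Zyx, zyxin, fell by 0.66 ± 0.14. Vcl, vinculin, had 46.0, 19.2 and 12.3 CPM against 38.8, 152 and 134 CPM and did not pass (adjusted p = 0.0660): DMSO library S13 lay below KU60019 library S16 and far below the other DMSO libraries. Its adjusted p lay between 0.0362 and 0.227 when any 1 of the 6 libraries was left out.

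Growth factor pathways were split between members. In the WNT pathway, where secreted ligands act through Frizzled receptors on beta-catenin, 8 of 29 genes rose and 5 fell (median 0.18, and -0.29 on TPM). The ligand gene Wnt11 had 7.52, 7.11 and 7.63 CPM with KU60019 and 2.94, 3.90 and 3.39 CPM with DMSO (log2 fold change 1.12 ± 0.19). Sfrp2, a secreted modulator, had 6.26, 6.11 and 5.62 CPM against 34.0, 64.9 and 48.8 CPM (-3.04 ± 0.36), while its relative Sfrp4 had 40.7, 10.2 and 19.7 CPM against 5.22, 2.58 and 3.66 CPM (2.63 ± 0.57). The targets Tcf7 (1.12 ± 0.23) and Nkd1 (-1.32 ± 0.21) also went opposite ways. In the TGF-beta and BMP pathway, whose receptors signal through SMAD proteins, 5 of 28 genes rose and 7 fell (median -0.14). The ligand Tgfb3 had 96.1, 101 and 101 CPM against 164, 173 and 197 CPM (-0.84 ± 0.17), and Tgfb1 had 46.0, 44.9 and 44.4 CPM against 32.8, 30.8 and 28.1 CPM (0.56 ± 0.13). On TPM Tgfb1 did not pass (limma adjusted p = 0.444). Bmp2 was low but separate, with 1.60, 2.62 and 2.06 CPM against 0.373, 0.534 and 0.458 CPM. Id1, a direct BMP target, had 34.9, 30.0 and 31.7 CPM against 86.2, 51 and 106 CPM (-1.33 ± 0.27).

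Markers of Schwann cells and their neural crest precursors were higher with KU60019, and unevenly so between its libraries. Schwann cells wrap peripheral axons, and SOX10 is the transcription factor that defines them. Of 25 tested genes of this list 12 rose and 1 fell, with a median of 1.26, and 10 or 11 rose when any 1 of the 6 libraries was left out (8 rose and 4 fell on TPM). Sox10 had 1.46, 6.44 and 15.2 CPM with KU60019 and 0, 0.157 and 0.267 CPM with DMSO (log2 fold change 5.53 ± 1.19, adjusted p = 0.00227). Foxd3, a transcription factor of early neural crest, had 0.293, 1.59 and 4.45 CPM against 0, 0.0314 and 0.0572 CPM. Ngfr, the low-affinity neurotrophin receptor, had 2.63, 13.1 and 36.7 CPM against 0, 0.220 and 1.05 CPM (5.14 ± 1.19). In these genes KU60019 library S18 was highest and library S16 lowest, with no overlap with DMSO.

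Further members had the same lowest and highest KU60019 library. Erbb3, the neuregulin receptor, had 1.64, 2.84 and 5.66 CPM with KU60019 and 0.298, 0.534 and 0.534 CPM with DMSO, and Cdh19, a glial cadherin, 0.766, 3.29 and 6.83 CPM against 0.0373, 0.0314 and 0.0953 CPM. Gfra3, a receptor of the GDNF family, had 108 counts over the KU60019 libraries and 1 over the DMSO libraries. Apod, an apolipoprotein of glia and of fibroblasts, was not in the list and had 15.6, 67.9 and 125 CPM against 2.50, 1.70 and 4.35 CPM (log2 fold change 4.57 ± 0.94). The summed level of the 28 listed genes did not follow, being 923, 838 and 916 TPM with KU60019 and 1329, 1278 and 1274 TPM with DMSO. That sum holds abundant genes that fibroblasts also make, among them Pmp22, which had 506, 462 and 539 CPM against 815, 652 and 675 CPM. Pmp22 was the member that fell (-0.51 ± 0.16), and its call was lost without any 1 of the libraries (adjusted p 0.0504 to 0.125). How far a difference in the number of Schwann cells between libraries enters these values was not tested.

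**Figure D3:**
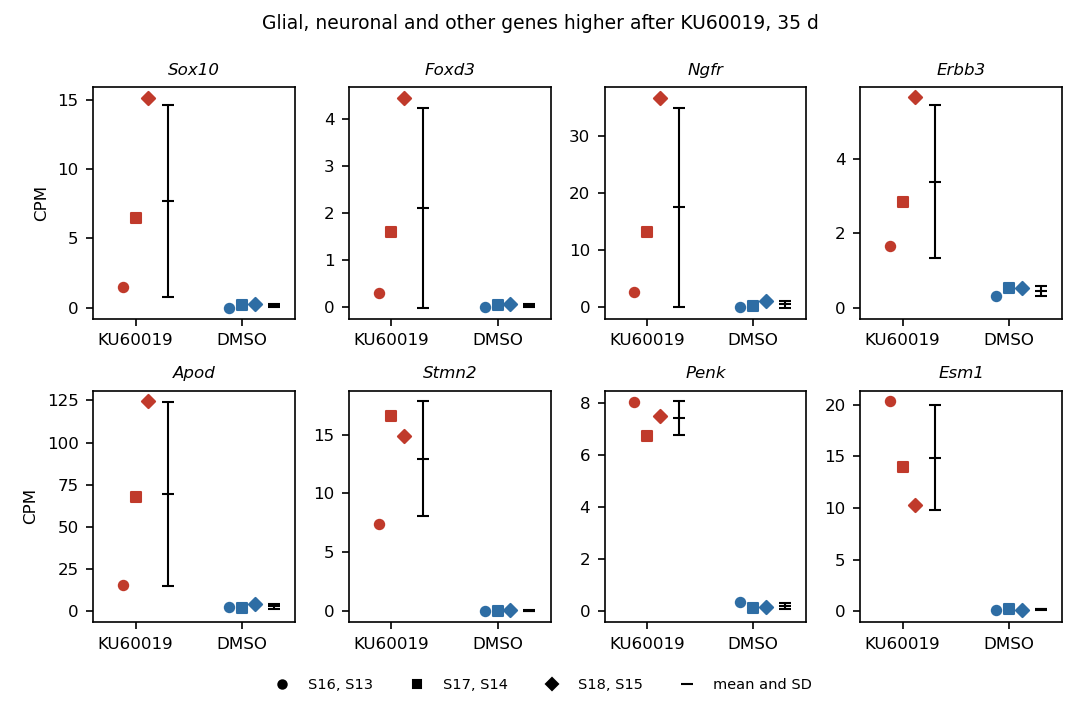
CPM of 8 genes in each library after 35 d, KU60019 (red) left of DMSO (blue), with the mean and SD of 3 libraries beside the points; the lower SD bar may reach below 0. Of the KU60019 libraries S16 is lowest and S18 highest for Sox10, Foxd3, Ngfr, Erbb3 and Apod, whereas S16 is highest for Penk (6.72 to 8.02 CPM) and Esm1 (10.2 to 20.4 CPM).

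Neuronal genes that rose were spread otherwise over the KU60019 libraries. Of 16 tested genes 10 rose and 2 fell, with a median of 2.25, or 2.02 with the gene that had no DMSO count set at its bound, and 6 rose without DMSO library S15. On TPM 6 rose and 3 fell, with a median of 0.34, and with only the compared groups and a replicate block, an alternative chosen after seeing the data, 6 rose and 1 fell, with a median of 1.27. Stmn2, a microtubule regulator of growing axons, had 7.39, 16.6 and 14.9 CPM with KU60019 and 0.0373, 0 and 0.0763 CPM with DMSO (log2 fold change 8.08 ± 0.88). Penk, the precursor of enkephalin peptides, had 8.02, 6.72 and 7.49 CPM against 0.335, 0.126 and 0.172 CPM (5.17 ± 0.51, adjusted p = 5.00e-07). Its KU60019 libraries lay close together. Uchl1, a deubiquitinase abundant in neurons, had 23, 44.7 and 40.4 CPM against 7.68, 6.79 and 6.64 CPM (2.36 ± 0.37), and Vgf, a granule protein, rose by 2.14 ± 0.29. Syngr1, a synaptic vesicle protein, had 7.81, 14 and 7.72 CPM against 0.447, 0.377 and 0.343 CPM. Nppc, the precursor of C-type natriuretic peptide, fell, with 0.743, 1.56 and 1.68 CPM against 6.82, 9.17 and 10.3 CPM (-2.76 ± 0.47).

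Other genes with large rises came from unrelated families. Esm1, the proteoglycan endocan (chromosome 13, 113209659 to 113218098), had 20.4, 14 and 10.2 CPM with KU60019 and 0.112, 0.251 and 0.153 CPM with DMSO (log2 fold change 6.41 ± 0.51, adjusted p = 3.63e-08). Crabp2, which carries retinoic acid to its nuclear receptor, had 22.4, 44.2 and 30.2 CPM against 1.45, 1.07 and 1.09 CPM (4.76 ± 0.39). Crct1, of the epidermal differentiation complex, had 40.1, 58.2 and 33.2 CPM against 2.57, 1.01 and 0.839 CPM (4.96 ± 0.55). The rule that named these genes asked for groups without overlap. Serpinb6c, an intracellular serpin, rose by 3.61 ± 0.31 and Ttyh1, a membrane protein of neural progenitors, by 3.07 ± 0.25. Ighm, the heavy chain gene of IgM, had 8.17, 7.19 and 12.7 CPM against 0.485, 0.471 and 0.400 CPM, while the lymphocyte markers summed to 0.591, 0.846 and 0.498 TPM against 0.470, 0.529 and 0.179 TPM.

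Genes with the lowest p among those that fell included proteases, a kinesin and cell surface receptors. Adam12, a membrane metalloproteinase, had 7.72, 6.86 and 5.71 CPM with KU60019 and 27.7, 30.5 and 31.3 CPM with DMSO (log2 fold change -2.13 ± 0.16, adjusted p = 3.63e-08). Adamts9, which cleaves versican, had 13.4, 16.1 and 15.4 CPM against 57.5, 75.0 and 75.2 CPM. Efnb1, an ephrin ligand, fell by 1.47 ± 0.12, Kif26b, an atypical kinesin, by 1.72 ± 0.16, and Fgfr2, a fibroblast growth factor receptor, by 1.67 ± 0.16. Galnt18, a mucin-type glycosyltransferase, had 16.1, 17 and 16.9 CPM against 103, 104 and 80.9 CPM (-2.52 ± 0.24). Its KU60019 libraries lay close together and far below every DMSO library.

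Transcripts of the mitochondrial genome were higher with KU60019. The mitochondrial DNA encodes 13 proteins of the respiratory chain, and 11 of those 13 genes rose and 0 fell, with a median of 1.65 (1.29 on TPM, 1.42 with the length trend removed). The same number rose when any 1 of the 6 libraries was left out. Their summed level was 80607, 94170 and 71883 TPM with KU60019 and 27501, 32853 and 31335 TPM with DMSO. mt-Co1, a subunit of cytochrome c oxidase (mitochondrial chromosome, 5328 to 6872), had 25763, 27386 and 19944 CPM against 5646, 6881 and 6121 CPM (log2 fold change 1.97 ± 0.26, adjusted p = 1.67e-05). mt-Cytb, cytochrome b of complex III, had 4532, 4616 and 4159 CPM against 1595, 1592 and 1519 CPM (1.5 ± 0.20). mt-Nd1 of complex I had the smallest of the 11 rises, with 2174, 2495 and 2071 CPM against 1289, 1105 and 1116 CPM (0.94 ± 0.20). mt-Nd5 (2.32 ± 0.53) and mt-Nd6 (2.60 ± 0.43) lie on opposite strands and overlap, and no source says whether counting used the strand, so their separate values are uncertain. mt-Nd4l (adjusted p = 0.336) and mt-Atp8 (0.260) did not pass, though their libraries did not overlap.

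The nuclear genes of the respiratory chain did not move to the same extent: 1 of 33 rose and 0 fell, with a median of 0.24 (-0.11 on TPM). The products of both genomes are known to assemble into the same complexes. The share of counts from the mitochondrial genome was higher in every KU60019 library, and the part of RNA quality in it was not tested.

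Of 28 oxidative stress genes 7 rose with KU60019 and 0 fell, with a median of 0.21 (on TPM 5 rose and 5 fell, with a median of -0.13). Fth1, the heavy chain of ferritin, had 7317, 7196 and 8420 CPM with KU60019 and 3196, 2613 and 2906 CPM with DMSO (log2 fold change 1.40 ± 0.28, adjusted p = 0.00117). Ftl1, the light chain, had 695, 890 and 935 CPM against 370, 257 and 282 CPM, and reads may be shared with its pseudogenes. Hmox1, heme oxygenase 1, which releases iron from heme, had 874, 932 and 810 CPM against 375, 369 and 395 CPM (1.20 ± 0.21). Gsta4, a glutathione transferase acting on lipid aldehydes, had 17.3, 15.9 and 22.6 CPM against 5.63, 5.66 and 5.68 CPM (1.72 ± 0.32). All these groups were separate. Nqo1, a quinone reductase and standard NRF2 target, rose by 0.94 ± 0.23, without a call on TPM (limma adjusted p = 0.109).

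Lysosomal genes rose in part: 9 of 38 rose and 1 fell, with a median of 0.17 (on TPM 6 rose and 9 fell, with a median of -0.21), and 5 rose without DMSO library S14. Cd68, a lysosomal membrane glycoprotein, had 14.9, 13.7 and 12.5 CPM with KU60019 and 3.21, 2.80 and 2.40 CPM with DMSO (log2 fold change 2.30 ± 0.18, adjusted p = 3.63e-08). Npc2, which hands on cholesterol in the lysosome, had 1060, 1096 and 1144 CPM against 669, 473 and 497 CPM (1.01 ± 0.18). Ctsh, cathepsin H, rose by 1.19 ± 0.21 and Neu1, a sialidase, by 0.82 ± 0.12. Tfe3, a transcription factor of lysosomal genes, had 44.7, 40.7 and 39.4 CPM against 50.9, 58.3 and 60.5 CPM and fell (-0.44 ± 0.11). Of 26 genes of cholesterol and fatty acid synthesis 5 rose and 0 fell, with a median of 0.12, and 2 rose without DMSO library S14 or S15 or KU60019 library S18. On TPM 2 of these genes rose and 7 fell, with a median of -0.20. Msmo1, a sterol demethylase, had 119, 103 and 112 CPM against 57.0, 62.4 and 56.9 CPM. Of 24 endoplasmic reticulum stress genes 2 rose (8.33%, against 9.7% of all tested genes) and 3 fell (12.5%, against 8.4%). The transcription factor gene Ddit3 had 124, 234 and 195 CPM against 81.5, 46.0 and 46.3 CPM, while the chaperone genes Hsp90b1 (-0.54 ± 0.12) and Pdia6 (-0.67 ± 0.14) fell.

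Transcription factors of lung mesenchyme were also examined. Of 21 genes 1 rose and 4 fell, with a median of -0.39. On TPM 1 rose and 8 fell. The number that fell was 3 without DMSO library S13 and 2 without any 1 of DMSO libraries S14 and S15 and KU60019 libraries S16, S17 and S18, and 0 rose without S14, S15, S16 or S17. Tbx2, which keeps mesenchymal cells dividing in the developing lung, had 52.7, 63.9 and 71.3 CPM with KU60019 and 113, 134 and 121 CPM with DMSO (log2 fold change -0.97 ± 0.16). Snai2, a factor of mesenchymal state, had 13.8, 15.3 and 12.9 CPM against 28, 25.7 and 24.8 CPM (-0.90 ± 0.15). In both the groups were separate.

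Markers of other lung cell types were low in both groups. Endothelial markers summed to 11.8, 12.4 and 13.7 TPM with KU60019 and 11.2, 12.9 and 11.2 TPM with DMSO, and the groups overlapped, although 4 of 12 rose and 0 fell. Those that rose were Tek, Vwf, Esam (log2 fold change 1.52) and Egfl7 (1.03). The call of Egfl7 was lost without DMSO library S14 or S15 or KU60019 library S18. Pecam1, a marker of the same list that was not called, had 28 counts over the KU60019 libraries and 37 over the DMSO libraries. Macrophage markers summed to 94.9, 66.0 and 76.9 TPM against 36.0, 27.1 and 26.3 TPM, and 3 of the 9 tested rose. That sum rests on Cd68 and on Lyz2, lysozyme, which had 59.3, 38.4 and 52.4 CPM against 21.7, 12.4 and 12.8 CPM. The defining complement genes C1qa, C1qb and C1qc had 1, 5 and 1 counts over the KU60019 libraries and 3, 2 and 0 over the DMSO libraries. Pericyte markers summed to 13.8, 15.0 and 15.4 TPM against 29.7, 61.0 and 42.4 TPM, with 1 of 6 higher and 1 lower. Mesothelial markers summed to 8.79, 14.8 and 6.83 TPM against 4.53, 4.80 and 4.04 TPM, with 2 of 6 higher. Epithelial markers (2.72, 4.85 and 3.35 TPM against 2.25, 2.60 and 2.06 TPM) had 0 of 3 tested genes higher or lower in edgeR's test. Epcam and Cdh1 were below the filter, with 7 counts each over the KU60019 libraries and 1 and 0 over the DMSO libraries. The part of such cells in the results above was not tested.

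Gene families defined by name gave further groups. Of 361 zinc finger genes with the prefix Zfp 69 fell and 8 rose, with a median of -0.29. The number that fell was 25 without DMSO library S14, 26 without DMSO library S15, 29 without KU60019 library S18 and 32 without KU60019 library S17, and 48 with the length trend removed. The number that rose was 3 to 8 over the same 6 sets of libraries. On TPM 166 zinc finger genes fell and 0 rose, with a median of -0.49. Of 49 protocadherins, adhesion proteins whose clustered genes share exons, 18 fell and 1 rose, with a median of -1.11, and 8 fell without DMSO library S14, 7 without DMSO library S15, 6 without KU60019 library S17 and 8 without KU60019 library S18. On TPM 20 protocadherins fell and 0 rose, with a median of -0.77. Of 47 potassium channel genes 15 rose and 1 fell, with a median of 0.45 (3 and 3 on TPM), and 9 rose without KU60019 library S18. Kcnn4, a calcium-activated channel, had 1.42, 3.82 and 3.18 CPM with KU60019 and 0.261, 0.283 and 0.210 CPM with DMSO (log2 fold change 3.48 ± 0.70). Kcnmb1, the smooth muscle subunit of the large-conductance channel, was the member that fell, with 0.248, 0.808 and 0.515 CPM against 2.39, 3.08 and 2.36 CPM (-2.33 ± 0.43).

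Calls depended on transcript length. Protein-coding genes were put into 5 classes of transcript length. In the shortest (204 to 2413 bases) 16.6% rose and 2.88% fell, and in the longest (7523 to 123179 bases) 7.11% rose and 18.1% fell. With each library's length trend removed the shares were 12.7% and 5.70% in the shortest class and 11.4% and 9.15% in the longest. This trend goes with the length correlations of the libraries given above, in which DMSO libraries S14 and S15 stood apart from the others, and their part in it was not tested.

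**Figure D4:**
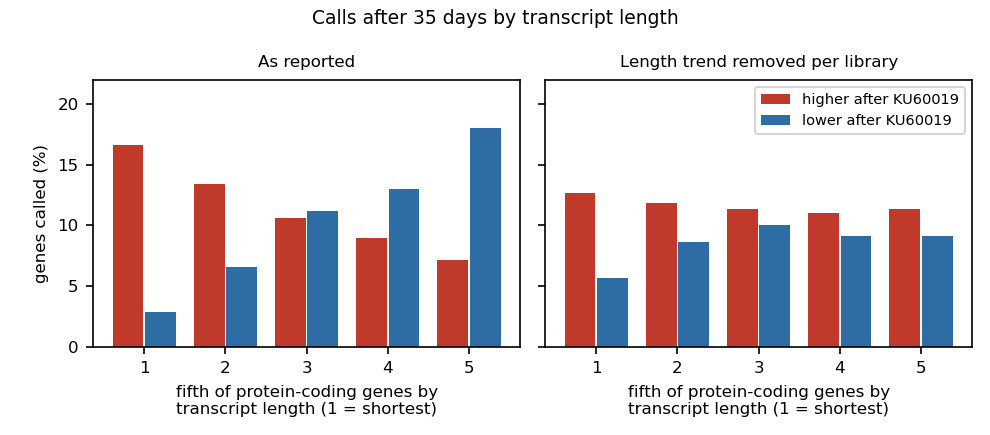
Share of protein-coding genes that rose (red) or fell (blue) after KU60019 in 5 classes of transcript length, as reported (left) and after the trend with length had been taken out of every library (right). On the left the share that fell climbs from 2.88% to 18.1% with length; on the right it is 5.70% in the shortest class and 8.62% to 10.1% in the others.

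The 35 d response was then set against that after 15 d of KU60019 over 15 d of DMSO, which uses 6 other libraries. At 15 d 2463 genes rose (13.2%) and 3195 fell (17.1%), 30.3% in all. These 5658 calls became 3639 without 15 d DMSO library S1 and 7079 without S2. The rank correlation of relative level with transcript length was 0.39, -0.13 and 0.43 in 15 d DMSO libraries S1, S2 and S3. Of the genes that rose at 35 d 665 also rose at 15 d, which is 36.7% of the 35 d and 27.0% of the 15 d list. Of those that fell at 35 d 756 also fell at 15 d, 48.2% of the 35 d and 23.7% of the 15 d list. Another 149 rose at 35 d and fell at 15 d, and 79 fell at 35 d and rose at 15 d. The test of the difference between both effects passed for 2184 genes (11.7%), with a more positive effect at 35 d for 7.11% of genes and a more negative one for 4.58%, among them all 228 with opposite calls.

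Contractile genes took opposite directions at both times. At 15 d 14 of 24 rose and 2 fell (median 0.63), and the difference between 35 d and 15 d was negative for 17 and positive for 0. Acta2 had a log2 fold change of 1.28 at 15 d and of -1.44 at 35 d (difference -2.73, adjusted p = 5.83e-05). Interferon genes were higher at both times, with 46 of 57 at 15 d, and 9 had a smaller effect at 35 d while 0 had a larger one. Matrix genes were lower at both, with 41 of 62 at 15 d, and the difference was positive for 12 and negative for 4. Col3a1 had -3.31 at 15 d and -1.77 at 35 d (difference 1.54, adjusted p = 0.0389), whereas Col4a1 had -0.64 and -1.71 (-1.07, adjusted p = 0.0165). Of the Schwann list 2 rose and 2 fell at 15 d, and the difference was positive for 8. At 15 d Ngfr averaged 11.7 ± 10.8 CPM with KU60019 and 11.2 ± 10.5 CPM with DMSO (SD), against 17.5 and 0.423 CPM at 35 d. Sox10 averaged 4.46 and 2.23 CPM at 15 d, against 7.69 and 0.141 CPM at 35 d. The lower DMSO level at 35 d thus enters the 35 d effect of both genes. Mitochondrially encoded genes rose at 15 d in 6 of 13 cases, with a positive difference for 4, among them mt-Co1 (0.37 at 15 d, 1.97 at 35 d, difference 1.60).

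**Figure D5:**
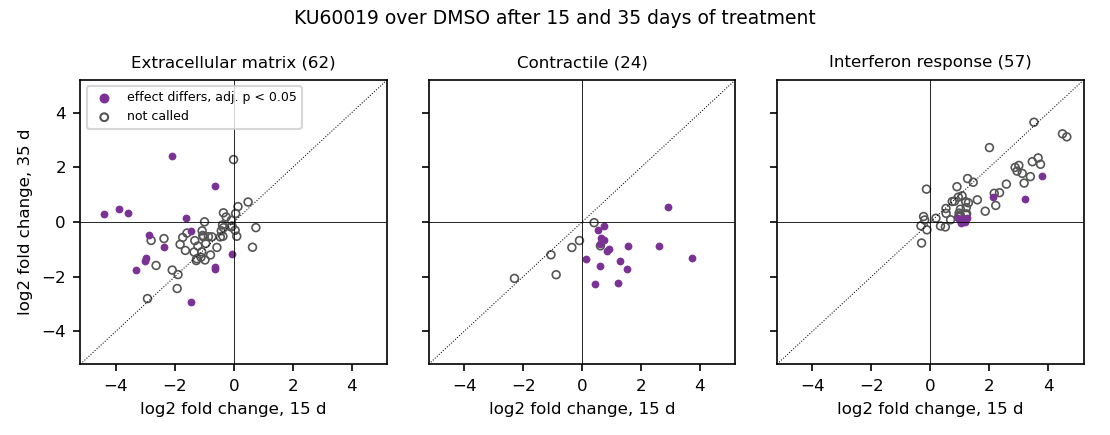
Log2 fold change of KU60019 over DMSO at 35 d (vertical axis) against that at 15 d (horizontal axis) for the tested members of 3 lists; filled points are genes whose effect differed between both times, open points those without a call, and the dotted line marks equal effects. Contractile genes lie mostly below and to the right of 0, interferon genes lie mostly above 0 at both times, and matrix genes lie mostly below 0 at both.

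Where both treatments had been taken away after 35 d and the cells were harvested 20 d later, the KU60019 history went with other differences. The effect differed from that at 35 d for 6060 genes (32.4%), and 1 library after DMSO removal, S19, had 2.91% ribosomal RNA. Of these genes 3108 were more positive at 35 d and 2952 more negative, a balance that depended on scaling. With library size as the only scaling the numbers were 1763 and 4504, and on TPM 808 and 7723. Of the calls after removal 49.9% were higher, against 70.4% with library size as the only scaling and 77.3% on TPM. Proliferation markers were far lower with the KU60019 history: Mki67 averaged 3.69 ± 0.99 CPM after KU60019 removal and 392 ± 77.2 CPM after DMSO removal (SD, n = 3 each), and 25 of 25 mitosis genes were lower after KU60019 removal. Of all tested genes 24.4% were higher after KU60019 removal and 24.5% lower. Of 62 extracellular matrix genes 25 were higher and 11 lower, with a median log2 fold change of 0.28. Among them Col1a1 was lower (-1.47 ± 0.25), while Col3a1 (0.95, adjusted p = 0.0249) and Fn1 (0.75, adjusted p = 0.0254), which both fell at 35 d, were higher. Col3a1 averaged 1971 CPM after KU60019 removal and 1018 CPM after DMSO removal, against 4736 and 16118 CPM at 35 d. Fn1 averaged 2738 and 1624 CPM after removal, against 4713 and 10090 CPM at 35 d. Both genes were thus lower after removal in both groups, and the lower DMSO level enters the change of sign. Of the 13 mitochondrially encoded protein genes 1 was higher, mt-Co1 (2.04 ± 0.26), and 7 were lower, with a median of -0.63. Lmnb1 was lower after KU60019 removal, with a log2 fold change of -3.59 ± 0.19. It averaged 5.15 CPM after KU60019 removal and 61.6 CPM after DMSO removal, against 6.12 and 13.4 CPM at 35 d. Adamtsl3 (-0.03 ± 0.43) and Penk (0.14 ± 0.39) did not pass the test. Adamtsl3 averaged 4.49 CPM after KU60019 removal and 4.42 CPM after DMSO removal, against 6.78 and 100 CPM at 35 d. Penk averaged 6.48 and 5.81 CPM after removal, against 7.41 and 0.211 CPM at 35 d. A changed DMSO level thus enters the comparison of both genes. Sox10 averaged 2.44 ± 2.03 CPM after KU60019 removal and 0.0129 ± 0.0224 CPM after DMSO removal.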

How the data were processed

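RNA of 27 fibroblast libraries was sequenced with a TruSeq preparation. Per the submitters' processing notes the tool was featureCounts and the build mm10; the aligner and annotation, with all versions and the use of strand, are not stated in the sources read here. The authors deposited raw counts of reads per gene (48440 genes) and TPM, which divides by transcript length (48082 genes). Groups were taken from the sample titles, and all 27 libraries were used.

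Counts were filtered with filterByExpr (minimum count 10), scaled by TMM and fitted with glmQLFit of edgeR 4.0.16 in R 4.3.3, with 1 coefficient per group and p-values adjusted by the Benjamini-Hochberg method. Standard errors are the log2 fold change over the square root of F. The difference between treatment times was tested in the same model. The deposited TPM were tested with limma 3.58.1 on log2(TPM + 1) where 3 libraries or more had 1 TPM; a fold change on that scale understates low genes. Other alternatives were DESeq2 1.42.0, other scaling, no filter, a replicate term, removal of the length trend and leaving out each library. The script was tested on simulated data. Counting error is small at these depths, and 3 libraries a group limit the precision more.

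Genes named were a panel of 8, the 15 largest rises and falls with a mean of 5 CPM or more in the higher group and no overlap, the 10 lowest p-values in each direction, the 10 highest levels, up to 6 members per list role and the 6 largest differences from 15 d in each direction. Members and lists were chosen with earlier results of these data known. Apod, Kcnn4, Kcnmb1, Gbp4 and Gbp6 were named after their values were seen, where no other part of the rule names them. Some genes that the rule names are not reported here. Promoters came from RefSeq (GRCm38.p6).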

Additional observations from a re-analysis of the deposited data

Results flagged for a closer look

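Of 216 genes followed in the text or by the rule for named genes, 82 had a KU60019 effect that differed between 35 d and 15 d by the test of the difference in edgeR's model (45 more positive and 37 more negative at 35 d). Over all tested genes this test passed for 11.7%. Some of the 216 were named because they passed it with a large difference, so the 82 do not measure how common such differences are. Differences below are the log2 effect at 35 d minus that at 15 d. Groups of 3 libraries are too small for a test of single outlying libraries.

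16 of these genes were called in opposite directions at both times; with the replicate number as a block the 15 d call of Lmod1 was lost (adjusted p = 0.0552). Among contractile genes, lower at 35 d and higher at 15 d, the difference was -2.73 for Acta2, -3.25 for Actg2, -3.43 for Cnn1, -2.22 for Lmod1, -2.42 for Tagln, -1.40 for Zyx and -3.91 for Kcnmb1. Asb2, a ubiquitin ligase subunit of muscle cells, differed by -5.14 and Galnt18 by -3.40. Genes higher at 35 d and lower at 15 d were Cdkn1c (3.69), Cyp2f2, a cytochrome P450 of lung (5.26), the endothelial genes Egfl7 (2.17) and Esam (3.08), Lyz2 (2.88), Omd, osteomodulin (4.50), and Sfrp4 (5.44).

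The other listed genes had the largest differences without opposite calls. Stmn2 differed by 7.97, with an effect of 8.08 at 35 d and 0.11 at 15 d. It averaged 1.43 CPM with KU60019 and 1.32 CPM with DMSO at 15 d, against 12.95 and 0.0378 CPM at 35 d. Both the higher KU60019 level and the lower DMSO level at 35 d thus enter the difference of Stmn2. Cxcl13, a chemokine of B cells, differed by 6.22 and Wfdc21 by 5.42, each with a negative effect at 15 d. Il11, a cytokine of fibroblast activation, differed by -4.97, Acta1 by -5.07, Cck by -4.49, Akr1c18 by -4.16 and Ptgs2, cyclooxygenase 2, by -4.15, each with a positive effect at 15 d.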

How the results depend on the processing

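No gene was called in the opposite direction at 35 d under any alternative; for the difference from the effect after removal, 7 genes were on log2(TPM + 1) and 6 on log2(TPM + 0.1). The number of genes that rose (1812) was 660 with limma on log2(TPM + 1) and 614 on log2(TPM + 0.1), and 1102 to 1947 without any 1 library. With only the compared groups in the fit 2578 rose and 2339 fell, and with DESeq2 2292 and 1812. The number that fell (1569) was 4267 and 3779 on these TPM scales, 966 without a filter, and 830 to 1639 without any 1 library. TPM moved the median of all genes to -0.33 and the share of calls that were higher to 13.4%, against 53.6% in the fit reported; with pseudocount 0.1 they were -0.39 and 14%. Effects that differed from 15 d (2184) numbered 1339 with pseudocount 0.1 and 1409 to 2319 without any 1 library, the lowest without KU60019 15 d library S5, and 3267 with only the compared groups. With the replicate number as a block 1813 rose and 1542 fell, and with the length trend also removed 1822 and 1360. Deviations of same-numbered KU60019 and DMSO libraries correlated at -0.38, 0.06 and -0.33 at 35 d and at 0.05, 0.00 and -0.49 after removal. At 15 d they correlated at 0.44, 0.30 and 0.45; with the block 5561 genes were called at 15 d, against 5658 without it, and 2273 differed between times. With only the compared groups and the replicate block, an alternative chosen after seeing the data, 1400 rose and 903 fell. Of 198 called genes followed, 141 kept call and direction under every alternative and 160 without any 1 library. The effects that changed sign were of uncalled genes: Mgp (-0.065 on both TPM scales), Cxcl13 (-0.032 and -0.036) and Cck (-0.79 to 0.061 without any 1 library). The cause was not tested. With 3 libraries a group, small changes and genes of few counts were not resolved.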
